A study of Rattus norvegicus with 4 samples.

Results

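Fc gamma receptors and the paired inhibitory receptors of myeloid and mast cells were examined in AA4-selected cells from rat pancreatic lymph nodes. The members were 10 genes, and they were chosen by gene symbol: every probe set whose platform annotation gives 1 of these symbols alone was taken, dim probe sets included. This gave 11 probe sets of 9 genes. The array holds 31099 probe sets in all, of which 20826, for 14217 genes, are annotated with a single gene symbol. Pirb had no probe set of its own, Sirpa had 3, and each of the other 8 genes had 1. The 9 genes were Fcgr1a, Fcgr3a, Fcgr2b, Fcgrt, Lilrb4, Cd300a, Sirpa, Cd200r1 and Tyrobp.

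The rats were BioBreeding DRlyp/lyp females, titled DP (diabetic prone), and BioBreeding DR+/+ females, titled DR (diabetic resistant). Both were sampled at day 65, and lyp is the Gimap5 mutation that removes most peripheral T cells. RNA of 8 animals was pooled per group, each pool was amplified independently and hybridised on 2 arrays, and the deposited signal is linear. Hence p-values reflect only the spread between amplifications and arrays of 1 pool, and they compare 2 pools and not the strains, and the number of arrays limits the precision.

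Receptors of these families come in pairs with opposite effects. Activating members such as Fcgr1a and Fcgr3a carry no signalling motif of their own and act through the adaptor Fcer1g, and others act through Tyrobp, both of which carry an activation motif that binds the kinase Syk. Inhibitory members carry tyrosine motifs in their cytoplasmic tails that recruit the phosphatases Ptpn6, Ptpn11 or Inpp5d, and on mast cells and macrophages they raise the threshold for activation by immunoglobulin.

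The cells were not shown to be mast cells alone. Kit, the stem cell factor receptor, read 1.4 and 2.0 on the DRlyp/lyp arrays and 10.4 and 11.3 on the DR+/+ arrays, all below 28.3, the median of all values. That median served as the filter: a probe set was tested only if it exceeded 28.3 on at least 2 of the 4 arrays. The mast cell carboxypeptidase Cpa3 read 528 and 516 in the DRlyp/lyp pool and 426 and 462 in the DR+/+ pool, while markers of macrophages, B cells and T cells also lay above the filter in both pools. In such material a lower share of a cell type and less RNA per cell cannot be told apart. The 3′ minus 5′ log2 signal of beta-actin, a measure of how short the amplified RNA was, averaged 4.49 in the DRlyp/lyp pool and 3.05 in the DR+/+ pool, and that of GAPDH averaged 2.46 and 1.65 in the same order; its part in the differences below was not tested.

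Fcgr3a and Fcgrt were the clearest differences, 2.45-fold and 2.67-fold lower in the DRlyp/lyp pool, and Cd300a and 1 of the Sirpa probe sets were also lower. Fcgr2b was slightly higher, and Fcgr1a, Tyrobp, Lilrb4, Cd200r1 and the main Sirpa probe set did not pass the threshold. Of the 11 probe sets, 10 passed the filter, 9 of them above it on all 4 arrays. At an adjusted p under 0.05 (limma, Benjamini-Hochberg over all 16068 probe sets tested), 1 was higher and 4 were lower. Over all probe sets tested 39.2% were called, 19.3% as higher and 19.9% as lower, so 5 of 10 is near the general share, and 10 probe sets do not allow more to be read from it. With each array centred on its median 2223 probe sets were called higher and 3939 lower, in place of 3104 and 3198, because that centring moved all differences down by 0.11 on the log2 scale. Omitting DRlyp/lyp replicate 1 left 1595 higher and 1883 lower, and omitting DRlyp/lyp replicate 2 left 1712 and 2055. The arrays of the pools did not overlap for 9 of the 10, 2 of them higher and 7 lower, against 70% of all probe sets tested, 34.6% higher and 35.4% lower. The median log2 difference, DRlyp/lyp minus DR+/+, was -0.33 over the 10 and -0.00050 over all tested. Cd200r1 passed the filter through the DR+/+ pool alone, which fixed its direction; over the other 9 probe sets 8 did not overlap, 2 higher and 6 lower, and the median was -0.24. These counts and medians are descriptions only.

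**Figure D1:**
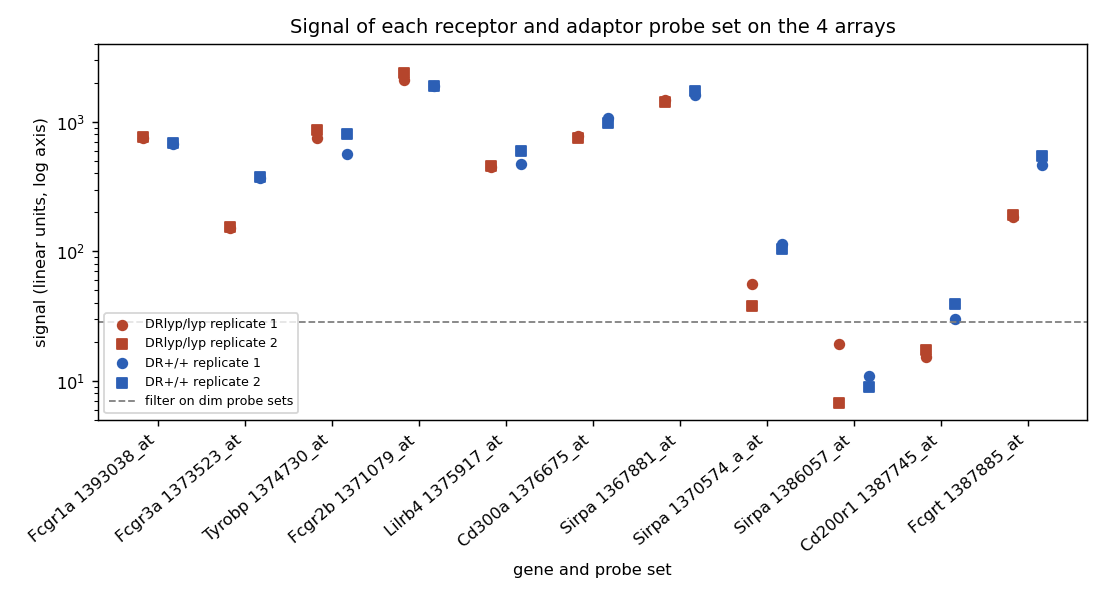
Signal of the 11 probe sets (linear units on a log axis) on the 2 DRlyp/lyp arrays (red, left of each pair) and the 2 DR+/+ arrays (blue, right), with the filter of 28.3 dashed. Fcgr3a and Fcgrt stand apart between the pools, whereas the 3 Sirpa probe sets run from 6.7 to 1736.

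The activating receptors for immunoglobulin G did not move together. Fcgr3a encodes a low-affinity receptor of the CD16 group, and RefSeq lists CD16-2 and Fcgr4 among its older names. It read 151 and 154 on the DRlyp/lyp arrays, against 372 and 376 on the DR+/+ arrays. Both DRlyp/lyp arrays were well under both DR+/+ arrays, and replicates of a pool differed by little. The log2 difference was -1.29 (95% interval -1.60 to -0.99, adjusted p = 2.80e-05, limma), which is 2.45-fold lower, and 3.07% of all probe sets tested had a lower difference. Fcgr1a, the high-affinity receptor that binds monomeric immunoglobulin G, read 754 and 768 on the DRlyp/lyp arrays, against 677 and 687 on the DR+/+ arrays. The DRlyp/lyp arrays were both slightly higher, but the log2 difference of 0.16 (95% interval -0.04 to 0.36) did not pass the threshold (adjusted p = 0.189, limma). The intervals of the 2 receptors did not overlap, though the difference between them was not tested.

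Fcgr2b is the inhibitory receptor of the family, whose tail motif recruits Inpp5d and restrains mast cells and B cells that bind immune complexes. Its probe set read 2115 and 2379 on the DRlyp/lyp arrays, against 1880.1 and 1910.1 on the DR+/+ arrays. The arrays did not overlap, and one DRlyp/lyp array lay close to the DR+/+ arrays. The log2 difference of 0.24 (95% interval 0.09 to 0.40) passed the threshold (adjusted p = 0.0190, limma), which is 1.18-fold higher. Fcgr2b lost this call when DRlyp/lyp replicate 2 was omitted (difference 0.16, adjusted p = 0.230), and when DR+/+ replicate 1 (difference 0.23, adjusted p = 0.0766) or DR+/+ replicate 2 was (difference 0.25, adjusted p = 0.0559). It was also lost with each array centred on its median (0.13, adjusted p = 0.340), so no more than a small difference was measured for Fcgr2b. RefSeq (GRCr8) places Fcgr2b and Fcgr3a side by side on chromosome 13, between Fcrla and Fcgr2a. These receptors are related in sequence, and how far each probe set reads 1 gene alone was not tested.

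Fcgrt encodes the neonatal Fc receptor, a relative of MHC class I heavy chains that binds immunoglobulin G and albumin in acidic endosomes and returns them to the surface; it belongs to the group by its ligand and does not signal as the others do. It read 185 and 191 on the DRlyp/lyp arrays, against 461 and 543 on the DR+/+ arrays. The DR+/+ arrays differed from each other more than the DRlyp/lyp arrays did, and still neither came near the DRlyp/lyp values. The log2 difference was -1.42 (95% interval -1.71 to -1.12, adjusted p = 1.15e-05, limma), 2.67-fold lower, and 2.22% of all probe sets tested had a lower difference. Fcgr3a and Fcgrt were called lower under all 12 other settings tried, with log2 differences from -1.41 to -1.07 for Fcgr3a and from -1.53 to -1.21 for Fcgrt. B2m, the light chain that Fcgrt needs, was named after its values were seen. Its brighter probe set read 8747 and 8604 in the DRlyp/lyp pool and 7315 and 7055.5 in the DR+/+ pool (log2 difference 0.27), but its other probe set differed by -0.05 and quantile normalization turned the brighter set's difference to -0.01, so no direction is given for B2m.

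**Figure D2:**
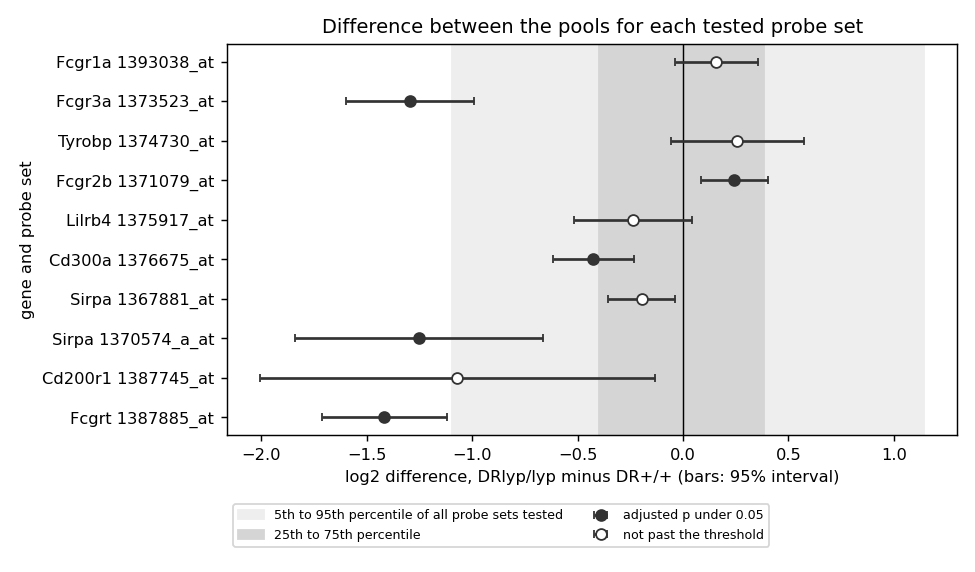
Log2 difference, DRlyp/lyp minus DR+/+, of the 10 tested probe sets with 95% intervals from limma; filled points passed an adjusted p of 0.05, and the grey bands hold the central 50% and 90% of all probe sets tested. Fcgrt at -1.42, Fcgr3a at -1.29 and a Sirpa probe set at -1.25 lie outside the wider band, and the other called differences lie within it.

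The promoter windows of the 3 genes called lower for which RefSeq's promoter table has an entry are shown because Fcgr3a, Fcgrt and Cd300a were lower in the same pool. Each window runs from 250 bases before to 50 after the gene's start in GRCr8, is printed 5′ to 3′ on the gene's strand, and has in capitals every match, on either strand, to 3 motifs: GAGGAA, a core bound by PU.1-type ETS factors; TTCNNNGAA, the gamma-activated site of STAT factors; and GAAA with a further GAAA 2 bases on, as in interferon-stimulated elements. The windows are chr13:85782386-85782685 (plus strand) for Fcgr3a, chr1:104719977-104720276 (minus strand) for Fcgrt and chr10:100428576-100428875 (plus strand) for Cd300a.
Fcgr3a: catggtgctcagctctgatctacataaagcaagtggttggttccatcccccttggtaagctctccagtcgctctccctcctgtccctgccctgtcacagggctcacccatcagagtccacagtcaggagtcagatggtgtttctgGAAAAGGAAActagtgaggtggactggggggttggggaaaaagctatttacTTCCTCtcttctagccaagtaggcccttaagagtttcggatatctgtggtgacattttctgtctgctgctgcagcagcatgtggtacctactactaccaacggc
Fcgrt: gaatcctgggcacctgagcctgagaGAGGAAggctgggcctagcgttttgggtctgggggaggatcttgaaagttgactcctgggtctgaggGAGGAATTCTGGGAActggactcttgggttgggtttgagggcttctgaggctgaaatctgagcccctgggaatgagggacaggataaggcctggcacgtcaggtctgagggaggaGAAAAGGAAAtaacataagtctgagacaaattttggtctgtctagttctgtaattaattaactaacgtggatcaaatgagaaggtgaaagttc
Cd300a: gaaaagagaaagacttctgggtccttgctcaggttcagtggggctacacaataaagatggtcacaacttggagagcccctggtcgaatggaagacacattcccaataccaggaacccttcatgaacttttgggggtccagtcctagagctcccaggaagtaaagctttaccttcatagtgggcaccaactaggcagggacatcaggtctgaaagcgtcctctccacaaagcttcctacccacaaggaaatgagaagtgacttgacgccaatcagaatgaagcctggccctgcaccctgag
Fcgr3a held 1 match to the third motif and 1 to GAGGAA on the opposite strand. Fcgrt held 2 matches to GAGGAA, 1 to TTCNNNGAA directly after the later of these, and 1 to the third motif, and Cd300a held none of the 3. The third motif was the rarest, present in 3.92% of the 33469 windows of this length, against 8.87% for TTCNNNGAA and 27.6% for GAGGAA. The same 10 letters, GAAAAGGAAA, made up the match in Fcgr3a and in Fcgrt. Matches were not limited to genes called lower: the window of Lilrb4, which was not called, held 1 match to GAGGAA, and that of Pirb, which has no value, held 2. A match describes the letters only; binding was not measured, and 5 of the 10 genes had an entry.

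Among the inhibitory receptors, Cd300a was lower and Lilrb4 was not called. Cd300a recognises phosphatidylserine on dying cells and inhibits mast cells and eosinophils through its tail motifs. It read 784 and 747.5 on the DRlyp/lyp arrays, against 1071 and 987 on the DR+/+ arrays. The arrays of the pools did not overlap and the difference was modest, at -0.43 on the log2 scale (95% interval -0.62 to -0.23, adjusted p = 0.00265, limma), 1.34-fold lower. It lost its call without a filter on dim probe sets (adjusted p = 0.0789) and without the intensity trend (adjusted p = 0.0683), with the same size of difference. Lilrb4, called Gp49b in older work, inhibits mast cells in the mouse. It read 446 and 455 on the DRlyp/lyp arrays, against 469 and 601.5 on the DR+/+ arrays. One DR+/+ array lay close to the DRlyp/lyp arrays and the other well above them. The log2 difference of -0.24 (95% interval -0.52 to 0.04) did not pass the threshold (adjusted p = 0.164, limma); without DR+/+ replicate 1 it was -0.42 and did (adjusted p = 0.0199). Pirb, whose product binds MHC class I on mouse myeloid cells and B cells, has no value here because the set that lists it lists 3 other genes as well.

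The probe sets of Sirpa disagreed in size. Sirpa binds Cd47 on neighbouring cells and recruits Ptpn6 and Ptpn11 to restrain phagocytosis. Its bright probe set read 1487 and 1436 on the DRlyp/lyp arrays, against 1615 and 1736 on the DR+/+ arrays. That is a small difference without overlap, -0.20 on the log2 scale (95% interval -0.36 to -0.04), just short of the threshold (adjusted p = 0.0508, limma). It was called under 6 of 12 other settings, quantile normalization (-0.21, adjusted p = 0.0370) and leaving out DR+/+ replicate 1 (-0.25, adjusted p = 0.0398) among them.

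A dimmer set read 56.0 and 37.8 on the DRlyp/lyp arrays, against 114 and 105 on the DR+/+ arrays. Here both DR+/+ arrays were far above the DRlyp/lyp arrays, with a log2 difference of -1.25 (95% interval -1.84 to -0.67, adjusted p = 0.00317, limma). No filter on dim sets ended its call (adjusted p = 0.128), and adding 50 to each value instead of flooring gave -0.73. The third set stayed below the filter, at 19.2 and 6.7 on the DRlyp/lyp arrays and 10.9 and 9.0 on the DR+/+ arrays, and was not tested. Which part of the transcript each set reads is not given in the sources used here, and the part of the larger 3′ minus 5′ signal of the DRlyp/lyp pool in this disagreement was not tested.

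Cd200r1, the inhibitory receptor for Cd200, which acts through Dok adaptors, read 15.4 and 17.4 on the DRlyp/lyp arrays, against 30.2 and 39.1 on the DR+/+ arrays. Both DRlyp/lyp arrays were below the filter, so the probe set was tested only through the DR+/+ pool and its difference had to be negative. The difference of -1.07 did not pass the threshold (adjusted p = 0.0668, limma); it did with quantile normalization (-1.23, adjusted p = 0.0451), with each array centred on its median (-1.18, adjusted p = 0.0495) and without the intensity trend (adjusted p = 0.0262). Since the filter fixed its direction, no difference is read from these values.

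Tyrobp, also known as DAP12, is the adaptor through which the activating partners of several of these receptors signal. It read 750.0 and 860.4 on the DRlyp/lyp arrays, against 562.5 and 802 on the DR+/+ arrays. The pools overlapped, since the higher DR+/+ array lay between the DRlyp/lyp arrays. The log2 difference was 0.26 (95% interval -0.06 to 0.57) and not past the threshold (adjusted p = 0.180, limma). It depended on the DR+/+ arrays: without DR+/+ replicate 1 it was 0.0022 (adjusted p = 0.991), and without DR+/+ replicate 2 it was 0.51 and called (adjusted p = 0.0106).

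**Figure D3:**
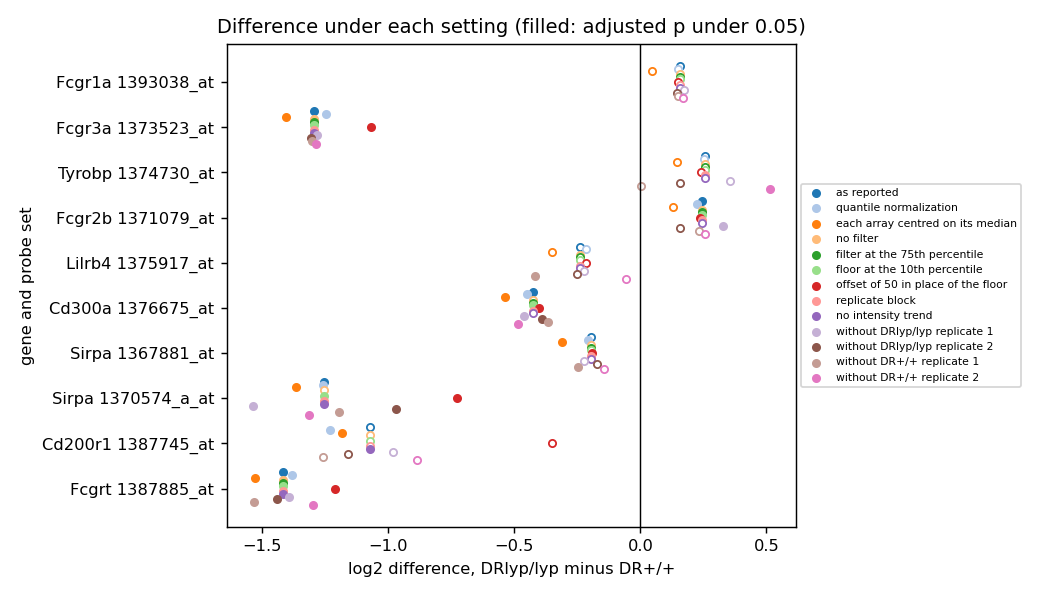
Log2 difference, DRlyp/lyp minus DR+/+, of each tested probe set as reported and under 12 other settings, 1 colour per setting; filled points passed an adjusted p of 0.05. No probe set changed direction, Fcgr3a and Fcgrt stayed below -1.0 throughout, and Tyrobp ran from 0.0022 to 0.51.

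The genes around these receptors were taken from 5 lists, with the brightest tested probe set standing for each gene. Over all 9349 genes represented in this way, 20.9% were higher, 21.1% were lower and the median log2 difference was 0.00075. Of 8 other Fc receptor genes tested, 2 were higher and 1 was lower, with a median of -0.01. Fcer1g, the adaptor of Fcgr1a, Fcgr3a and the IgE receptor, read 4046.5 and 4016 in the DRlyp/lyp pool and 3108 and 3135 in the DR+/+ pool (log2 difference 0.37, adjusted p = 0.000224, limma). It was thus higher in the pool where Fcgr3a was lower, by a much smaller factor, 1.29-fold. Fcer1a, which binds IgE itself, read 107.5 on both DRlyp/lyp arrays and 82.8 and 42.8 on the DR+/+ arrays, and its call (adjusted p = 0.0410) did not survive omission of either DRlyp/lyp array (0.186 and 0.185) or of DR+/+ replicate 2 (0.213). Fcrla, an intracellular Fc receptor-like protein of B cells and a neighbour of Fcgr2b, was lower by both of its probe sets, at -0.27 and -1.58; the brighter one was no longer called when DRlyp/lyp replicate 1 (difference -0.23, adjusted p = 0.123) or DR+/+ replicate 2 (difference -0.19, adjusted p = 0.0837) was omitted.

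Of 19 other paired and inhibitory surface receptors tested, 7 were higher and 5 were lower, with a median of -0.01. Centring each array on its median made that 5 higher and 7 lower, and leaving out the filter made it 2 and 1. Fewer were called when either DRlyp/lyp array was omitted. Higher were Cd5 of T cells (332 and 357 against 109 and 134 in the DR+/+ pool), Clec4a, a lectin receptor of dendritic cells (641 and 670.0 against 431.5 and 338), and Klrg1 of NK and T cells (108 and 85.6 against 58.0 and 43.7). Klrg1 was no longer called when DRlyp/lyp replicate 1, DRlyp/lyp replicate 2 or DR+/+ replicate 2 was omitted, with adjusted p of 0.178, 0.0574 and 0.0635 in that order. Lower were Clec12a, an inhibitory lectin of myeloid cells (107 and 144 against 270.1 and 265), Clec4a1 (424 and 429 against 668 and 813) and Pecam1, an adhesion receptor with inhibitory motifs (49.6 and 73.7 against 142 and 119; adjusted p = 0.0680 when DRlyp/lyp replicate 1 was omitted). Trem2, a receptor that signals through Tyrobp, was below the filter on all 4 arrays.

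Signalling genes downstream were called in both directions. Their counts are descriptions only, beside shares of 20.9% higher and 21.1% lower over all genes. Of 16 activating adaptors and kinases 3 were higher and 6 were lower, with a median of -0.17. The kinase Btk read 464 and 484.5 in the DRlyp/lyp pool and 994 and 997.5 in the DR+/+ pool (log2 difference -1.07), and the phospholipase Plcg2 and the adaptor Grb2 were lower by -0.96 and -0.89. Zap70, the Syk relative of T cells, was higher by 2.22 and the exchange factor Vav3 by 0.99. Of 12 inhibitory effectors 2 were higher and 5 were lower, with a median of -0.20, and 1 was higher when either DRlyp/lyp array was omitted. Ptpn6, the phosphatase that most of these inhibitory tails recruit, read 1654 and 1609 in the DRlyp/lyp pool and 2585.5 and 2816 in the DR+/+ pool (log2 difference -0.73, adjusted p = 1.02e-05, limma). Dok3 (-0.77) and Rasa1 (-1.16) were also lower, though the other Rasa1 probe set did not pass the threshold (-0.46, adjusted p = 0.0824). Inpp5d, the phosphatase of the Fcgr2b pathway, which was named after its values were seen, was lower by -0.38 (adjusted p = 0.00623), but was not called when DRlyp/lyp replicate 2 was omitted (difference -0.35, adjusted p = 0.0744). Ptpn11 was higher by 0.75; its other probe set, near the filter, differed by 0.04 (adjusted p = 0.945). Skap2, an adaptor found with Sirpa in macrophages, was higher by 0.23 (adjusted p = 0.0383), but was not called when either DRlyp/lyp array (0.236 and 0.111) or DR+/+ replicate 2 (0.231) was omitted.

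Among 8 tested ligands and partners 5 were higher and 3 were lower, with a median of 0.27. Centring each array on its median made that 2 higher and 3 lower. Without a filter, or without the intensity trend, 2 were higher and 2 were lower. Fewer were called when either DRlyp/lyp array was omitted. The ligands went both ways. Cd47, which binds Sirpa, read 687 and 621 in the DRlyp/lyp pool and 1277 and 1247 in the DR+/+ pool (log2 difference -0.95, adjusted p = 9.98e-06, limma), although its other probe set differed by -0.20 and did not pass the threshold (adjusted p = 0.0885). Cd200, which binds Cd200r1, read 199 and 214 against 309 and 273 (log2 difference -0.49, adjusted p = 0.0176), but was not called when DRlyp/lyp replicate 1, DRlyp/lyp replicate 2 or DR+/+ replicate 1 was omitted, with adjusted p of 0.147, 0.0805 and 0.0714 in that order. The lipoprotein Apoe was lower by -0.86, whereas fibronectin Fn1, a ligand of Lilrb4, and complement C3 were higher by 1.48 and 1.11. Rtn4, which binds Pirb in the mouse, was higher by 0.30 by its brighter probe set and lower by its other one (-1.44). The brighter Rtn4 set was not called with each array centred on its median, without a filter or without the intensity trend. With dim probe sets kept in, the calls of Clec4a, Clec4a1, Clec12a, Klrg1, Pecam1, Fcer1a, Fcrla, Grb2, Vav3, Ptpn11, Rasa1, Inpp5d, Skap2 and Cd200 were lost, at adjusted p from 0.0791 (Ptpn11) to 0.382 (Fcer1a). Without the intensity trend the calls of Fcer1g (adjusted p = 0.0767, limma), Inpp5d (0.0892), Fcer1a (0.137), Fcrla (0.182) and Skap2 (0.267) were lost. The call of Cd200 was lost in that setting as well.

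**Figure D4:**
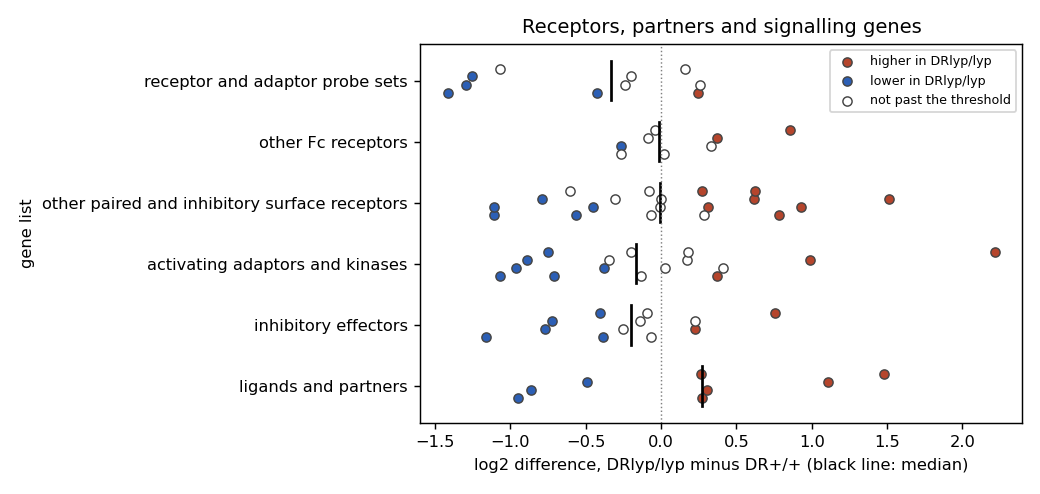
Log2 difference, DRlyp/lyp minus DR+/+, of the 10 receptor and adaptor probe sets (top row) and of the genes of 5 lists, 1 point per probe set or gene; red was called higher, blue lower and white not called, and the black line is each row's median. The medians lie at -0.33 in the top row, between -0.20 and -0.01 in the next 4 rows and at 0.27 in the last.

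Marker transcripts of several cell types also differed between the pools, in both directions. Over all genes taken by their brightest tested probe set, 20.9% were higher and 21.1% lower, and the counts below are descriptions only. The summed signals also take in listed genes that were not tested, and some genes stand in several lists. Of 13 tested macrophage and monocyte markers 3 were higher and 8 were lower, with a median log2 difference of -0.68. Their summed signal ran from 19199.9 to 19291 in the DRlyp/lyp pool and from 20681 to 21218 in the DR+/+ pool. Lyz2 made up much of these sums, and without it they ran from 8497 to 8741 in the DRlyp/lyp pool and from 13303 to 14090.4 in the DR+/+ pool. The brightest macrophage genes were Lyz2 (0.55), Cd68 (0.50) and C1qa (-1.10).

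Of 7 B cell markers 0 were higher and 4 were lower, with sums of 10163 to 10795 in the DRlyp/lyp pool and 13037.5 to 13946 in the DR+/+ pool, and median centring made that 7 lower. Of 7 dendritic cell markers 5 were higher and 0 were lower, with sums of 2335 to 2429 in the DRlyp/lyp pool and 1541 to 1561 in the DR+/+ pool; 3 were higher when DRlyp/lyp replicate 1 was omitted and 0 without a filter. Of 8 NK cell markers 3 were higher and 2 were lower, but 0 were higher and 1 lower when DRlyp/lyp replicate 1, DRlyp/lyp replicate 2 or DR+/+ replicate 2 was omitted. The NK sums were 4857 to 4895 in the DRlyp/lyp pool and 4267 to 4640.4 in the DR+/+ pool, and without Prf1 they overlapped, at 2348.5 to 2518 and 2465 to 2500.3.

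Lyp rats lack most peripheral T cells, but transcripts in selected cells do not count the T cells of the animal. Of 10 tested T cell markers 9 were higher, with sums of 9216.5 to 9270.1 in the DRlyp/lyp pool and 2032.5 to 2188.5 in the DR+/+ pool. The other one, Cd4, was called lower but not when DRlyp/lyp replicate 2 or DR+/+ replicate 2 was omitted. Of 10 tested mast cell markers 3 were higher on the log2 scale, Mcpt1 (1.30), Il1rl1 (3.39) and Fcer1a (0.85). Another 3 were lower, the tryptases Tpsab1 (-1.87) and Tpsb2 (-1.53) and also Hpgds (-0.58). The other 4, Cpa3 (0.23), Ms4a2 (-0.09), Cma1 (-0.02) and Hdc (0.36), were not called. Without a filter 2 of the 10 were higher, Fcer1a no longer among them, and 0 were lower. With the filter at the 75th percentile 3 were tested, of which 1 was higher and 0 were lower. The mast cell sums ran from 2952 to 3047 in the DRlyp/lyp pool and from 1956 to 2033 in the DR+/+ pool. Without Mcpt1 the mast cell sums overlapped, at 1350.4 to 1382 and 1300.5 to 1364. Neutrophil markers (3 of 5 higher, 0 lower) summed to 3158 to 3220.1 in the DRlyp/lyp pool and 1662 to 1994 in the DR+/+ pool.

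Markers of exocrine pancreas (8 of 8 higher) summed to 8079 to 8371 in the DRlyp/lyp pool and 203 to 208 in the DR+/+ pool. Plasma cell markers (2 of 6 higher, 1 lower) summed to 17535 to 17718 in the DRlyp/lyp pool and 14657 to 15076 in the DR+/+ pool. Endothelial markers (2 of 5 higher, 2 lower) summed to 708 to 713.5 in the DRlyp/lyp pool and 846 to 875 in the DR+/+ pool, an order that turned without Kdr (574 to 618 and 459 to 484.5). Omitting DRlyp/lyp replicate 1 left 1 endothelial marker lower, and omitting DRlyp/lyp replicate 2 left 1 higher. Some markers passed the filter through 1 pool only, which fixed their direction: Cd4 and Ncr1, an NK receptor, among the lower ones, and Il1rl1 of mast cells and Cpa1, Cpb1 and Ctrb1 of the pancreas among the higher ones. Kit, Cd28 of T cells, Cxcr2 of neutrophils and Prox1 of endothelium were below the filter on all arrays. The part of these shifts in the receptor differences was not tested.

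**Figure D5:**
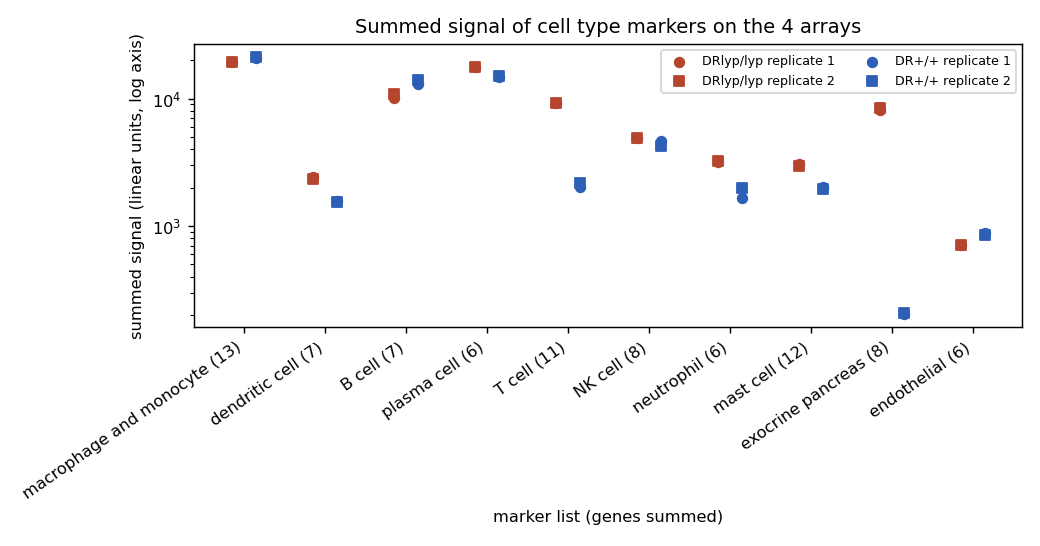
Summed signal (linear units on a log axis) of 10 lists of cell type markers on the 2 DRlyp/lyp arrays (red, left) and the 2 DR+/+ arrays (blue, right), with the number of genes summed in brackets. The T cell and exocrine pancreas sums are far higher in the DRlyp/lyp pool and the B cell sums are lower in it. The macrophage sums, drawn with Lyz2 included, lie close together, and those without Lyz2 are not drawn.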

How the data were processed

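Per the series' design text, pooled RNA was amplified in 2 cycles for each of the 4 arrays. The authors deposited 1 intensity per probe set and array, on a linear scale; the sources used here do not name the program that made and scaled it. Values were not rescaled, since every array had a trimmed mean of 150.1. Groups and replicate numbers came from the sample titles and descriptions.

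The 57 control sets were left out. Values under 6.8, the 25th percentile of all arrays, were set to it before taking log2. Probe sets above the median of all values (28.3) on at least 2 arrays were tested with limma 3.58.1 (lmFit, eBayes, intensity trend; R 4.3.3; two-sided, 2 residual degrees of freedom), adjusted by Benjamini-Hochberg over all tested. Folds are on that floored scale. With 2 against 2 arrays an exact permutation test cannot go below p = 0.333 and was not used. The script was tested on simulated data. Plots used matplotlib 3.10.9 (Python 3.11.15).

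Symbols came from the platform annotation, and the Entrez numbers of all 11 probe sets were found in RefSeq's GRCr8 table with 0 symbols changed. Promoter sequences are RefSeq's, build GRCr8, and the array files name no build.

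The members and lists were chosen with earlier results of these data known. Named were all member probe sets. From each list of surrounding genes, up to 3 called genes each way were named, by largest difference and without overlap of arrays. The plan for each marker list was its 3 brightest tested genes, and for mast cells also Kit, Fcer1a, Ms4a2, Cpa3 and Cma1. That plan was kept for the macrophage and mast cell lists and not for the other marker lists. B2m, Inpp5d and Trem2 fall outside these rules. So do the other marker genes named, which were chosen with their values known. Settings varied were the normalization (quantile, or median centring), the filter (none, or the 75th percentile), the floor (10th percentile, or adding 50), a replicate block, the intensity trend, and omission of each array. Leaving out probe sets that passed the filter through 1 pool only, and leaving the brightest gene out of each marker sum, were added after seeing the data.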

Additional observations from a re-analysis of the deposited data

How the results depend on the processing

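No member probe set changed direction under any setting run, and 97 of 118 member values kept their side of the threshold, 9 lost a call and 12 gained one. The member count called higher (1) was 0 with each array centred on its median, 0 without a filter and 0 without the intensity trend, and ranged from 0 to 1 when an array was left out. Over all probe sets tested 13.8%, 2.72% and 12% were called higher in the first 3 of these settings. The count called lower (4) was 2 without a filter and 5 with 50 added in place of the floor. Over all tested 2.66% and 20.6% were then lower. It was 6 with quantile normalization and 6 with each array centred on its median, beside 19.9% and 24.5% over all tested. With 10 member probe sets these counts are descriptions only. Over all probe sets, 3104 were higher and 3198 lower; without a filter these were 844 and 827, without the intensity trend 1932 and 2125, and with an array left out they ranged from 1595 to 2987 and from 1883 to 2813, lowest without DRlyp/lyp replicate 1 (1595 and 1883) and DRlyp/lyp replicate 2 (1712 and 2055). The cause was not tested. With a replicate block the member count called higher was 2, since Tyrobp passed (adjusted p = 0.0267, limma), and that called lower was 5. Over all probe sets tested 21.7% were then higher and 22.1% lower. Same-numbered arrays share only a number, and their deviations correlated at 0.04 over all tested probe sets. The added runs over the other genes named turned 1 difference round, that of B2m with quantile normalization (-0.0096). Depth cannot be judged without scanner files, and signals near 28.3, such as those of Cd200r1, are not shown to be above background.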

Other observations

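A pair of probe sets annotated to Fcgr2a and Fcgr2al1 together, and so assigned to neither, went in opposite directions. The brighter read 3107 and 3287 on the DRlyp/lyp arrays, against 1280 and 1382 on the DR+/+ arrays, a log2 difference of 1.26 (95% interval 1.11 to 1.42, adjusted p = 1.45e-07, limma). The dimmer read 865 and 917 on the DRlyp/lyp arrays, against 1421 and 1581 on the DR+/+ arrays, a log2 difference of -0.75 (95% interval -0.94 to -0.57, adjusted p = 4.06e-05, limma). Both directions held under all 12 other settings, although the dimmer was not called without a filter on dim sets (adjusted p = 0.0539). RefSeq places both genes beside Fcgr3a on chromosome 13.

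The probe set that lists Pirb with Lilrb1, Lilrb3b and Pira2 read 179 and 199 on the DRlyp/lyp arrays, against 262 and 250.2 on the DR+/+ arrays, a log2 difference of -0.44 (adjusted p = 0.0340, limma). It was no longer called when any 1 array was omitted, with adjusted p from 0.0510 to 0.233.

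The probe sets of Rtn4, the Nogo protein that binds Pirb in the mouse, went opposite ways. The brighter read 1457 and 1585 on the DRlyp/lyp arrays, against 1200.3 and 1263 on the DR+/+ arrays (log2 difference 0.30, adjusted p = 0.00893, limma). That call was lost with each array centred on its median, without a filter and without the intensity trend. The dimmer read 32.3 and 36.3 on the DRlyp/lyp arrays, against 96.4 and 89.4 on the DR+/+ arrays (log2 difference -1.44, adjusted p = 0.00145, limma).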
